A study of Homo sapiens with 5 samples.

Results

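The genes described here are the well-expressed long intergenic noncoding RNAs (lincRNAs) of the human embryonic stem cell line H9. A gene was included when the deposited annotation calls it a lincRNA and its mean normalized count in the mock controls was at least 100. The rule left out LINC00458, LINC-ROR, ESRG, LINC00678, H19, MEG3, MEG8, GAS5 and every name that begins with SNHG, of which 7 had reached the threshold. This gave 147 of 3535 listed lincRNAs, in a table of 33857 genes. The members were thus chosen by their mock control values, so the level in the mock controls is given as a description with no test. XIST met the rule and enters the counts, but its values are not printed, which leaves 146 members with values.

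The samples were clones grown in mTeSR medium after transfection with a CRISPR-Cas9 plasmid, and poly(A+) RNA was sequenced from 5 of them. Both mock control clones (n = 2) had received the empty eCRISPR vector. The 3 CFIm25-m clones (n = 3) came from independent gRNAs placed near the start codon of NUDT21, the gene of CFIm25, and each is a clone of its own. They are labelled CFIm25 KO, but the study describes them as keeping a faint band of CFIm25 protein with a short N-terminal deletion, so they are knockdown and mutant clones. Both groups share the cell line, the medium and transfection with the eCRISPR plasmid, and replicates 1, 2 and 3 of CFIm25-m are called clones 1, 2 and 3. NUDT21 had 6503 and 6398 normalized counts in the mock controls, against 4035, 3281 and 3400 in the clones (log2 fold change -0.86, standard error 0.11, adjusted p = 0.00431, limma-trend).

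LincRNAs are made by RNA polymerase II from genes that lie apart from protein-coding exons. Most are capped, spliced and cleaved at a poly(A) site like mRNAs, and many are held in the nucleus, where the exosome and its adaptors NEXT and PAXT degrade those that are not stabilised. CFIm25 binds UGUA motifs in nascent RNA as the small subunit of cleavage factor Im and helps to select poly(A) sites. Embryonic stem cells transcribe many lincRNAs that differentiated cells lack, a part of them from the long terminal repeats of endogenous retroviruses. Some well-known lincRNAs are only partly seen after poly(A) selection, since mature MALAT1 and the long form of NEAT1 end without a poly(A) tail.

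Promoter sequences from RefSeq (GRCh38.p14) were available by symbol for 49 of the 147 members. Each runs from 250 bases before the RefSeq start to 50 bases after it, 5′ to 3′ on the strand of the gene. The windows below belong to members whose level differed between the groups, and to the protein-coding partner of the only head-to-head pair in which both genes were higher in CFIm25-m. Capitals mark CCAAT boxes (CCAAT) on either strand. TATA boxes (TATAAA) and octamers (ATGCAAAT) were searched in the same way on both strands, and matches of different motifs may share bases.
LINC00654, chromosome 20, minus strand (chr20:5504547-5504846), lower in CFIm25-m: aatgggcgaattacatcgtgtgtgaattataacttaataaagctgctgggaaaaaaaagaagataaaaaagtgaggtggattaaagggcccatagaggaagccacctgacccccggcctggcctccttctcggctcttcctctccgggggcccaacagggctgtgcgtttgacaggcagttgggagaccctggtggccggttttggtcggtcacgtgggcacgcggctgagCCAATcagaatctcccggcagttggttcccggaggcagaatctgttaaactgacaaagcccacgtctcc
LINC01356, chromosome 1, minus strand (chr1:112850594-112850893), lower in CFIm25-m: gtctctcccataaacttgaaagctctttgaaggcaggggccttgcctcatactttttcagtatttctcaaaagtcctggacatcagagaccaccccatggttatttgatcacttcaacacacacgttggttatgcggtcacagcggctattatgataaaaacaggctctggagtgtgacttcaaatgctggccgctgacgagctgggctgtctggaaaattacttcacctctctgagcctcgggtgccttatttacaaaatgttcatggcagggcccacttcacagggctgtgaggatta
ZNF667-AS1, chromosome 19, plus strand (chr19:56477624-56477923), higher in CFIm25-m: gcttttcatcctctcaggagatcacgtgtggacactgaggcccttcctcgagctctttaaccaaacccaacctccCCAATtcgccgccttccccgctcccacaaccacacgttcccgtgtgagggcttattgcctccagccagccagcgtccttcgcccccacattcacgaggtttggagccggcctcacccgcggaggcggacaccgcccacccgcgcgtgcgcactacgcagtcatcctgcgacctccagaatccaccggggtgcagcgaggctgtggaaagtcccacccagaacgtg
ZNF667, chromosome 19, minus strand (chr19:56477296-56477595), higher in CFIm25-m: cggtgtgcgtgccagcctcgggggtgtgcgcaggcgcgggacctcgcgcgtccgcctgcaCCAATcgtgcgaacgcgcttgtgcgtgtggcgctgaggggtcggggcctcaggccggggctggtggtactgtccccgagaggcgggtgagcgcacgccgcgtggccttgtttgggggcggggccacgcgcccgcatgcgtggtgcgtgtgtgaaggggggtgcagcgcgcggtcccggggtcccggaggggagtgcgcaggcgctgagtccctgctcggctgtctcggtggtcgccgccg
LINC02570, chromosome 6, minus strand (chr6:30848110-30848409), higher in CFIm25-m: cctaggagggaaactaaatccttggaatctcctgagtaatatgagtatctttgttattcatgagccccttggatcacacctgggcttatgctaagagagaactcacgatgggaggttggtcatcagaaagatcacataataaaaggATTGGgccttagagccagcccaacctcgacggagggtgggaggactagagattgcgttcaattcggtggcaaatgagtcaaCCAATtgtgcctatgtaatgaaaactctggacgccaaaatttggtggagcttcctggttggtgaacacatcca
LINC01844, chromosome 5, plus strand (chr5:142745350-142745649), higher in CFIm25-m: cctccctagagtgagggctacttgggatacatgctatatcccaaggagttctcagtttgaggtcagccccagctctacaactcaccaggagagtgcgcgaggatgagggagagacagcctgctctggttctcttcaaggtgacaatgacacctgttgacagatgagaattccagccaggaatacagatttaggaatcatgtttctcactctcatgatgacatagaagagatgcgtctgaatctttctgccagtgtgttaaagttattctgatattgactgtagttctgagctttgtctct
The windows differed most in CG dinucleotides, of which ZNF667 held 42, ZNF667-AS1 24 and LINC00654 14, while LINC01356 and LINC02570 held 6 each and LINC01844 held 3. The median was 16 over 55 windows of members and 14 over all 35116 windows in the table. A CCAAT box lay in 24 of the 55 windows (43.6%) and in 34.6% of all windows. A TATA box lay in 8 of them (14.5%, against 11.5% of all windows). The octamer lay in 0 of them, against 1.77% of all windows. The deposited starts of LINC01356, LINC02570 and LINC01844 were those of RefSeq, and that of LINC00654 was 17 bases upstream. RefSeq lists 2 starts for ZNF667-AS1, and the window of the second, at base 56478124, held 21 CG and no CCAAT box and is not printed. The deposited start of ZNF667-AS1 was 624 bases upstream of its first RefSeq start and that of ZNF667 720 bases upstream of the RefSeq start, so that in the deposited annotation these genes overlap across the printed windows.

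In the mock controls the levels ran from the threshold to a mean of 9555. The mean normalized count was 1000 or more for 19 members and between 100 and 200 for 65, with a median of 221. NORAD, a cytoplasmic lincRNA that binds Pumilio proteins, was highest with 9599 and 9512. ERVH48-1, derived from an endogenous retrovirus and known to encode the envelope-like protein suppressyn, followed with 8094 and 8043. PWAR6, from the Prader-Willi region, had 5846 and 5683, MIAT had 4754 and 4676, and AC092490.1 had 3757 and 3704. The mock controls lay close together, and 1 member of 147 differed by over 1.5-fold between them.
Per kilobase of deposited gene length, which allows genes to be compared within a sample, the order changed. ERVH48-1 then led with 2839 normalized counts per kb, followed by AC068134.2 with 2133, NORAD with 1790, AC124312.2 with 1749 and AC104257.1 with 1735. LNCPRESS2 had 1710, AC092490.1 1637, AL354821.1 1633, PWAR6 1248 and LNCPRESS1 1162 per kb. With 2 samples the spread cannot order neighbours such as AC124312.2 and AC104257.1. Of these 10 lincRNAs, ERVH48-1, AC068134.2 and AC104257.1 differed between the groups, as described further on. All members together took 0.408% and 0.404% of all normalized counts in mock control, against 0.373%, 0.344% and 0.463% in clones 1, 2 and 3, so the groups overlapped.

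Which of these lincRNAs differ when CFIm25 is reduced was asked by comparing the 3 CFIm25-m clones with both mock controls. At an adjusted p below 0.05 (limma-trend, all 19232 tested genes in the fit), 14 members were lower and 6 higher in CFIm25-m, which is 9.52% and 4.08% of the 147, all of which were tested. Over all tested genes 0.936% were lower and 0.941% higher. Since high mock control values chose the members, the fairer background is the 12229 tested genes at the same threshold, of which 1.25% were lower and 0.981% higher. Choosing lincRNAs by the mean of all 5 samples instead, an alternative added after the data were seen, gave 155 lincRNAs of which 11 were lower and 7 higher. With 1 sample left out, 5 members were lower and 1 higher without mock control replicate 1, 5 and 2 without replicate 2, 9 and 3 without clone 1, 12 and 3 without clone 2, and 24 and 8 without clone 3. The share of all tested genes called in either direction moved with these counts, from 1.88% with all samples to 0.349% and 0.374% without mock control replicate 1 or 2, and to 0.757%, 1.06% and 5.55% without clone 1, 2 or 3. Limma without the mean-variance trend called 2 lower and 1 higher, with 0.239% of all tested genes called in either direction. In bulk RNA, fewer cells that express a gene and less RNA per cell cannot be told apart.
As a whole the members lay near 0. Their median log2 fold change was 0.02, against -0.01 over all tested genes and -0.05 over protein-coding genes at the threshold, and without CFIm25-m clone 3 it was -0.03. They were spread more widely, since 16 of them (10.9%) changed by over 1 on the log2 scale, against 1.08% of all tested genes at the threshold. The members also lie lower than those genes, with a median mock control level of 221 against 726. The values of the groups did not overlap in 67 members (45.6%), against 36.8% of all tested genes and 39% of those at the threshold. Of the 127 others, those with printed values had log2 fold changes between -1.23 and 0.91 with an adjusted p of 0.05 or more.

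**Figure D1:**
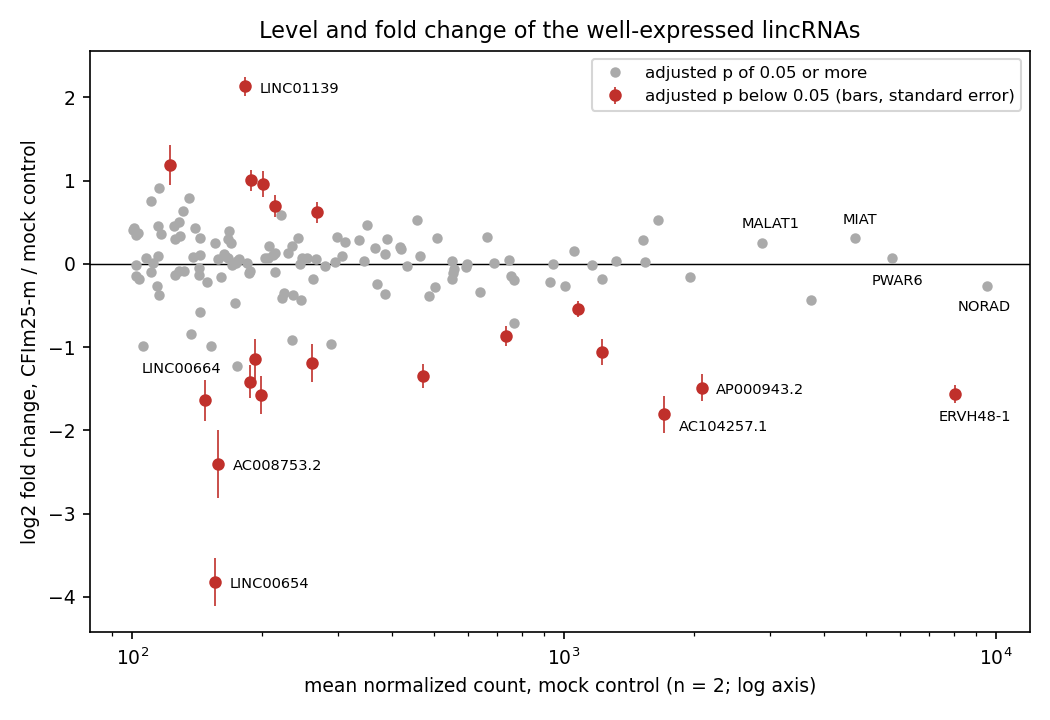
Each point is 1 of the 146 lincRNAs with printed values, with its mean normalized count in the mock controls on a log axis and its log2 fold change in CFIm25-m. Red points passed an adjusted p of 0.05 and carry their standard error. They lie between -3.82 and 2.13, at levels from 122 to 8068.

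ERVH48-1 was the most abundant member called lower. Its normalized counts were 8094 and 8043 in mock control and 3128, 2499 and 2630 in CFIm25-m. The clones lay far below both mock controls, at a mean of 34.1% of the mock control mean (log2 fold change -1.56, standard error 0.11, adjusted p = 0.000222, limma-trend). NDUFV3, a complex I subunit gene 3499 bases away on the other strand, was at 932 in mock control and 949 in CFIm25-m (adjusted p = 0.931). In hg38, ERVH48-1 spans bases 42916803 to 42925646 of chromosome 21, minus strand.
LINC00654 had the largest relative change. It had 149 and 163 normalized counts in mock control and 11, 10.8 and 8.66 in CFIm25-m. That is 6.52% of the mock control mean, and no clone came near the mock controls (log2 fold change -3.82, standard error 0.29, adjusted p = 0.000228, limma-trend). Its nearest tested protein-coding gene, GPCPD1, lies 39791 bases away and was at 159 and 198 in the groups (log2 fold change 0.30, adjusted p = 0.475). LINC00654 spans bases 5496067 to 5504613 of chromosome 20, and its promoter window is the first printed above.
AP000943.2 and AC104257.1 were also abundant. AP000943.2, on chromosome 11, had 2158 and 2010 normalized counts in mock control and 570.3, 824 and 871 in CFIm25-m (log2 fold change -1.49, standard error 0.17, adjusted p = 0.00223, limma-trend). AC104257.1, on chromosome 8, had 1657 and 1757 against 524, 337 and 653 (log2 fold change -1.81, standard error 0.22, adjusted p = 0.00425). In both the clones differed among themselves, but none overlapped the mock controls. The nearest protein-coding gene of AP000943.2, the piRNA pathway gene PIWIL4, was at 13.8 and 14.5 in the groups (adjusted p = 0.923).

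**Figure D2:**
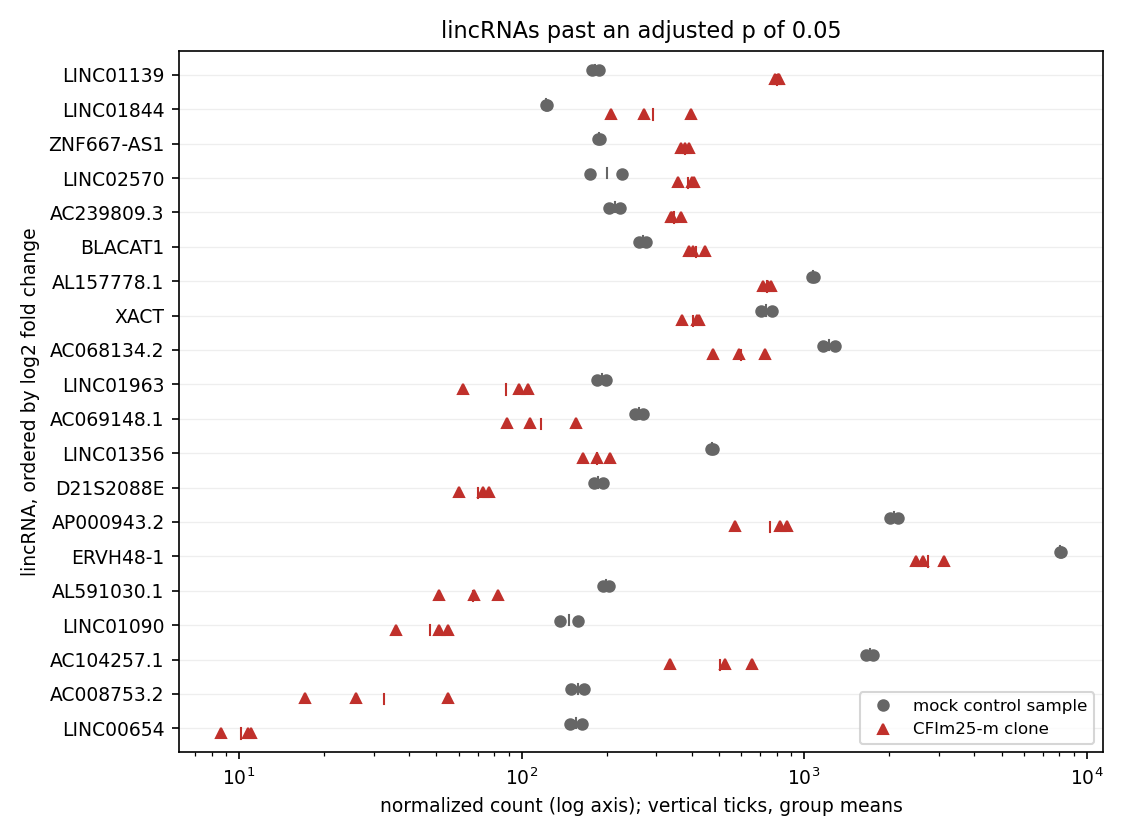
Normalized counts on a log axis for the 20 lincRNAs with an adjusted p below 0.05, in order of log2 fold change. Grey circles are the mock control samples (n = 2), red triangles the CFIm25-m clones (n = 3) and ticks the group means. LINC01139 at the top reaches 815 in CFIm25-m, and LINC00654 at the bottom falls to 8.66.

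A pair of members from the X chromosome was lower. XACT, a lincRNA known to coat the active X chromosome of human pluripotent cells, had 769 and 704 normalized counts in mock control and 425, 418 and 371 in CFIm25-m (log2 fold change -0.86, standard error 0.12, adjusted p = 0.0064, limma-trend). AL157778.1 had 1085 and 1071 against 747, 714 and 763 (log2 fold change -0.54, standard error 0.10, adjusted p = 0.0235). The clones lay close together and below the mock controls in both genes. AL157778.1 had the smallest called decrease. FTX and JPX, noncoding genes of the X inactivation centre, did not pass the test. FTX had 453 and 459 in mock control and 465, 709 and 857 in CFIm25-m (log2 fold change 0.52, adjusted p = 0.284). JPX had 111 and 96.5 against 87.2, 79.2 and 109 (log2 fold change -0.18, adjusted p = 0.718).

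LINC01356 was the only called gene of 6 members on a list of lincRNAs linked to pluripotency or early lineages. It had 475 and 467 normalized counts in mock control and 184, 206 and 164 in CFIm25-m (log2 fold change -1.35, standard error 0.14, adjusted p = 0.00196, limma-trend). LINC00698 was lower in every clone, with 814 and 722 against 530.2, 330.4 and 582, but did not pass (log2 fold change -0.71, adjusted p = 0.144). LNCPRESS1, a p53-regulated lincRNA of pluripotent cells, had 1003 and 1011 against 788, 983 and 759.9 (log2 fold change -0.26, adjusted p = 0.356). The log2 fold change was 0.16 for LNCPRESS2 (adjusted p = 0.627), 0.33 for LINC01194 (adjusted p = 0.52) and -0.16 for LINC00599 (adjusted p = 0.808). LINC00599 had 1911 and 2000 in mock control against 1484, 1314 and 2769, so clone 3 lay above both mock controls. Without clone 3, where 5.55% of all tested genes were called, LINC00698 passed (adjusted p = 0.0256). LINC00599 then passed as well, at -0.49 (adjusted p = 0.00681), a decrease that clone 3 did not share. The median of the 6 was -0.21, against 0.02 over all members.
Of 12 undifferentiated stem cell markers 0 passed the test (limma-trend), with summed normalized counts of 265047 and 268904 in mock control and 244594 to 247323 in CFIm25-m. On the log2 scale POU5F1, the gene of OCT4, differed by 0.21 (adjusted p = 0.456) and SALL4 by -0.35 (adjusted p = 0.0854). At an unadjusted p below 0.05 there were 3 of the 12, SALL4, DNMT3B (-0.33) and LIN28A (-0.41), all lower. POU5F1, TDGF1 and PODXL had positive log2 fold changes and the other markers negative ones. The median of the list was -0.15, against -0.05 over protein-coding genes at the threshold. Of the 12, edgeR called 0 and DESeq2 1. Of 7 tested ectoderm markers DCX was lower, by a log2 fold change of -1.14, and MAP2 and OTX1 were higher, with 1.94 and 1.10. The ectoderm list summed to 12916 and 13632 in mock control and 10926 to 13717 in CFIm25-m, nearly all of it from NES. Of the 4 tested mesoderm, 5 endoderm and 3 fibroblast markers 0 passed, with 0, 2 and 2 at an unadjusted p below 0.05, and of these 12 edgeR called 0 and DESeq2 1. Their sums were 2740 and 2841 against 2791 to 3792 for mesoderm, 88.8 to 99.1 against 105 to 140 for endoderm, and 15632 and 15998 against 12786 to 15710 for fibroblast markers. The markers HAND1 and FAP had no row in the deposited data, so nothing is said of their level. The defining genes SOX17, FOXA2, NEUROD1, DCN and LUM stayed at or below 2.31 in each sample. Other listed genes were expressed. COL1A1, a collagen gene of fibroblasts, had 8180.0 and 8705 normalized counts in mock control and 5749, 6829 and 6427 in CFIm25-m (log2 fold change -0.42, adjusted p = 0.0828, limma-trend). COL1A2 had 1124 and 1107 against 1408, 1493 and 1350.5 (log2 fold change 0.34, adjusted p = 0.113), so the collagen pair differed in direction. THY1 had 6316 and 6161 against 5620, 7384 and 7468, and KDR, a mesoderm receptor gene, 2608 and 2684 against 2831, 2662 and 3635 (adjusted p = 0.702 and 0.525). The endoderm genes CXCR4, with 13.8 and 4.83 against a mean of 23.7 ± 3.97 (SD, n = 3), and AFP, with 10.4 and 4.83 against 26.1, 17.1 and 14.4, were low and above both mock controls in every clone (adjusted p = 0.187 and 0.232). The part of such cells in the lincRNA differences was not tested.

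AC069148.1 and AC068134.2 each lay beside a gene that was also called lower. AC008753.2 lay beside a low lincRNA that could be called only as lower. LINC01090 overlapped a protein-coding gene that was not called. AC069148.1 starts 1050 bases from the start of FZD7, a Wnt receptor gene, on the opposite strand of chromosome 2. It had 251 and 270.2 normalized counts in mock control and 89.2, 156 and 107 in CFIm25-m (log2 fold change -1.18, standard error 0.23, adjusted p = 0.0323, limma-trend). FZD7 itself had 12462 and 12971 against 7882, 9097 and 7354 (log2 fold change -0.65, standard error 0.11, adjusted p = 0.0189).
AC068134.2, also on chromosome 2, had 1169 and 1288 against 729, 476 and 589 (log2 fold change -1.06, standard error 0.16, adjusted p = 0.0103, limma-trend). The pseudogene ECEL1P1 lies 845 bases away on the same strand and had 3822 and 3923 against 2355, 1515 and 2186 (log2 fold change -0.96, adjusted p = 0.0189). Genes farther out did not share the direction, and ALPG, an alkaline phosphatase gene 9947 bases away, was at 353 and 521 (log2 fold change 0.54, adjusted p = 0.194).
AC008753.2, on chromosome 19, had 150 and 167 against 26.1, 17.1 and 54.8 (log2 fold change -2.40, standard error 0.41, adjusted p = 0.0189, limma-trend). AC008753.3, a lincRNA below the threshold that lies 613 bases away on the other strand, had 28.8 and 29.0 against 5.01, 9.0 and 5.77 (log2 fold change -2.01, adjusted p = 0.0438). It passed the filter on low values through the mock controls alone, so only a decrease could be called in it. Its call was lost under several alternatives, with an adjusted p of 0.128 without CFIm25-m clone 1 and of 0.0582 without clone 2. NLRP12, 4435 bases away, was at 106 and 82.8 (log2 fold change -0.45, adjusted p = 0.533).
LINC01090 runs for 671498 bases on chromosome 2 and overlaps GULP1, which encodes an adaptor of phagocytosis, on the opposite strand. It had 158 and 137 against 55.1, 36.0 and 51.0 (log2 fold change -1.64, standard error 0.25, adjusted p = 0.010, limma-trend). GULP1, at 5237 and 4182 in the groups, did not pass (log2 fold change -0.33, adjusted p = 0.205). A strand setting of the counting is not given in the sources used here, so reads of these overlapping genes cannot be told apart by strand.

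The remaining called decreases were in members of modest level. D21S2088E, on chromosome 21, had 194 and 180.5 normalized counts in mock control and 60.1, 72.9 and 76.9 in CFIm25-m (log2 fold change -1.41, adjusted p = 0.00677, limma-trend). AL591030.1, on chromosome 6, had 194 and 205 against 68.2, 82.8 and 51.0 (log2 fold change -1.58, adjusted p = 0.00878). LINC01963, 10742 bases from the DNA repair gene XRCC5, had 184 and 199.8 against 105, 62.1 and 98.1 (log2 fold change -1.14, adjusted p = 0.0451). In each of these the clones were below both mock controls, and LINC01963 was nearest to the threshold of the test. For XRCC5 the log2 fold change was -0.12 (adjusted p = 0.653).

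6 lincRNAs were higher in CFIm25-m. LINC01139, known as LINK-A and described as a scaffold for kinase signalling, had 188 and 178 normalized counts in mock control and 807, 791 and 815 in CFIm25-m. The clones were nearly alike and at 4.40 times the mock control mean (log2 fold change 2.13, standard error 0.11, adjusted p = 3.91e-05, limma-trend). No tested protein-coding gene lay within 50 kb of it.
ZNF667-AS1 shares its start region with ZNF667, a zinc finger gene of the KRAB family, on the opposite strand. The lincRNA had 187 and 190.1 against 379, 366 and 392 (log2 fold change 1.00, standard error 0.13, adjusted p = 0.00465, limma-trend). ZNF667 had 362 and 371 against 761, 710.3 and 946 (log2 fold change 1.12, standard error 0.14, adjusted p = 0.00403). Both genes of the pair thus rose in every clone, and the RefSeq start of ZNF667 is 529 bases from the first and 779 from the second start of ZNF667-AS1. Their deposited gene models overlap, so that part of the reads cannot be assigned to one of them without strand. ZNF471, 7177 bases from ZNF667-AS1, was at 67.0 and 137 (log2 fold change 1.02, adjusted p = 0.0958).
LINC02570, on chromosome 6, had 175 and 227 against 408, 402 and 358 (log2 fold change 0.96, adjusted p = 0.0123, limma-trend). LINC01844 had 123 and 122 against 207, 397 and 270.3, so its clones differed among themselves more than those of the other called increases (log2 fold change 1.19, standard error 0.24, adjusted p = 0.0372). Neither had a called protein-coding neighbour, with 0.02 for ARHGAP26 beside LINC01844 (adjusted p = 0.948) and -0.10 for DDR1, a collagen receptor gene, beside LINC02570 (adjusted p = 0.686).
AC239809.3, next to the NBPF11 gene on chromosome 1, had 224 and 205 against 366, 340.3 and 338 (log2 fold change 0.70, adjusted p = 0.0286, limma-trend). It lies in a region of near-identical copies, so its counts are uncertain where reads could be split between them. BLACAT1, a lincRNA named for bladder cancer, had 275 and 262 against 446, 406 and 391 (log2 fold change 0.62, adjusted p = 0.0387). It overlaps LEMD1 on the same strand, and LEMD1 had 119 and 131 against 231, 249 and 182 (log2 fold change 0.80, adjusted p = 0.0587).

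The calls did not weigh alike when a sample was left out. ERVH48-1, LINC00654 and LINC01139 passed the threshold in all 15 other fits. AP000943.2, AC104257.1 and LINC01356 also passed whichever sample was left out. Without mock control replicate 1 the other 14 lost their call, with adjusted p between 0.0512 and 0.354. Without mock control replicate 2 LINC02570 kept its call and 13 lost it, with adjusted p between 0.0659 and 0.437. Without CFIm25-m clone 1, 8 were lost (adjusted p 0.0582 to 0.138), namely AC008753.2, AC069148.1, AC239809.3, AL157778.1, AL591030.1, BLACAT1, LINC01963 and LINC02570. Without clone 2, 7 were lost (adjusted p 0.0516 to 0.0819), of which LINC01844 was the only one not lost without clone 1. Without clone 3 all 20 remained. Of the neighbours, ZNF667 passed in each case, ECEL1P1 lost its call without either mock control (adjusted p = 0.0905 and 0.103), and FZD7 lost it without either mock control (adjusted p = 0.198 and 0.268) or without clone 1 (adjusted p = 0.0966). The log2 fold changes of the 20 lincRNAs kept their sign, and those of the lost calls stayed between 0.792 and 1.12 times their size in each of these cases.

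The best-known nuclear and cytoplasmic lincRNAs did not pass the test. Of 14 names on this list 8 were members, and 0 were called. NORAD had 9599 and 9512 normalized counts in mock control and 8321, 7913 and 7689 in CFIm25-m, lower in every clone (log2 fold change -0.26, standard error 0.09, adjusted p = 0.216, limma-trend). It passed without clone 3 (adjusted p = 0.0311), although that was its lowest clone. The fit without clone 3 called 5.55% of all tested genes, against 1.88% with all samples. At an unadjusted p below 0.05 there were 2, NORAD and FTX, and edgeR and DESeq2 also called 0. NEAT1, the scaffold of paraspeckles, whose short form is made at a poly(A) site that cleavage factor Im is known to promote, had 1179 and 1146 against 1027, 876 and 1713. The clones thus lay on both sides of the mock controls (log2 fold change -0.01, standard error 0.23, adjusted p = 0.989).
MALAT1, a nuclear speckle RNA, had 2922 and 2832 against 3628, 2749 and 4029 (log2 fold change 0.25, adjusted p = 0.448, limma-trend). MIAT, another nuclear lincRNA, had 4754 and 4676 against 5824, 4798 and 7114 (log2 fold change 0.31, adjusted p = 0.356). The log2 fold change was 0.12 for CRNDE (adjusted p = 0.752) and 0.11 for PVT1 (adjusted p = 0.756). MIR34AHG, the host of the p53-induced microRNA miR-34a and the only member among 20 names of microRNA hosts, had 552 and 551 against 455, 561 and 708 (log2 fold change 0.04, adjusted p = 0.943).
The proteins that act on these RNAs were likewise not called at the RNA level. Of 11 tested rows for paraspeckle proteins 0 passed, with HNRNPK at -0.16 (adjusted p = 0.583) and SFPQ at 0.13 (adjusted p = 0.617) on the log2 scale. Of 19 tested genes of the exosome, NEXT and PAXT 0 passed. Their median log2 fold change was -0.03 and that of the paraspeckle list -0.14. Over protein-coding genes at the threshold it was -0.05, and over all tested genes -0.01. At an unadjusted p below 0.05 there were 0 of the paraspeckle rows and 1 decay gene, EXOSC6, with a log2 fold change of 0.24, and edgeR and DESeq2 called 0 of either list. CPSF6 and CPSF7, the larger subunits of cleavage factor Im, were at 0.16 (adjusted p = 0.425) and -0.17 (adjusted p = 0.421) on the same scale.

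Several abundant members that did not pass moved with clone 3. PWAR6 had 5846 and 5683 normalized counts in mock control and 5515, 4962 and 8183 in CFIm25-m (log2 fold change 0.08, adjusted p = 0.876, limma-trend). AL354821.1, on chromosome 13, had 1319 and 1323 against 1048, 1196 and 1984 (log2 fold change 0.04, adjusted p = 0.955). In both, clones 1 and 2 lay below the mock controls and clone 3 above them. AC124312.2 had 779 and 714 against 772, 691 and 867 (log2 fold change 0.05, adjusted p = 0.872).
Others moved the same way in every clone. AC092490.1, on chromosome 12, had 3757 and 3704 against 2678, 3105 and 2534, below both mock controls in each clone (log2 fold change -0.43, standard error 0.10, adjusted p = 0.0764, limma-trend). It passed without clone 2 (adjusted p = 0.0460), without clone 3 (adjusted p = 0.0213) and in DESeq2 (adjusted p = 0.0174). Clone 3 was its lowest clone, and without it the log2 fold change was smaller, at -0.37. These fits called 1.06%, 5.55% and 3.27% of all tested genes, against 1.88% in the main fit. The replicate block, which drops clone 3 from the comparison, gave the same log2 fold change as leaving that clone out. AC092490.1 did not pass without clone 1 (adjusted p = 0.214), in edgeR (adjusted p = 0.0811) or in limma without the trend (adjusted p = 0.260). Nor did it pass under the other scalings, filters and pseudocounts. PURPL, a lincRNA induced by p53, had 1640.1 and 1662 against 2187, 1979 and 3145 and was above them in each clone (log2 fold change 0.53, standard error 0.17, adjusted p = 0.169). LINC00665 had 1531 and 1515 against 1810.1, 1788 and 1992 (log2 fold change 0.29, adjusted p = 0.179). SOX21-AS1, which starts 317 bases from the transcription factor gene SOX21 on the opposite strand, had 489.9 and 483 against 429, 368 and 327 (log2 fold change -0.38, adjusted p = 0.229), while SOX21 differed by -0.41 (adjusted p = 0.187). PURPL, LINC00665 and SOX21-AS1 were chosen after their values were seen. They are among 24 members with an unadjusted p below 0.05 that did not pass after adjustment, and 29.9% of the members had such a p against 15.1% of all tested genes.

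A tested protein-coding gene lay within 50 kb of 101 members, and 46 had none. The nearest such gene was called for 4 of the 101. Over all tested genes 1.88% were called, and of 11463 protein-coding genes at the threshold 130 were lower and 106 higher. In 2 of the 4 pairs the lincRNA was called too, namely ZNF667-AS1 with ZNF667 and AC069148.1 with FZD7. The others were FLVCR1, a heme exporter gene at 0.57 on the log2 scale (adjusted p = 0.04997) beside FLVCR1-DT at 0.20, and SSTR1, a somatostatin receptor gene with 1.59 (adjusted p = 0.00425) beside AL392023.1 at -0.04. Of 13 called lincRNAs with a neighbour, 11 thus lay beside one that was not called, as most genes were not. The log2 fold changes of lincRNA and neighbour had the same sign in 60 of 101 pairs (Pearson r = 0.20, Spearman rho = 0.29). In 30 pairs that start within 2 kb of each other on opposite strands the sign agreed in 16 (r = 0.52, rho = 0.32). Without the 2 pairs in which both were called, the signs agreed in 14 of 28 (r = 0.11, rho = 0.16). These correlations are across genes of the same 5 samples, which are not independent replicates.

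The median range among the 3 clones was 0.479 on the log2 scale over the members and 0.279 over all tested genes at the threshold, while the members lie at lower levels, as given above. The median member differed from the mock control mean by 0.01 in clone 1, by -0.10 in clone 2 and by 0.16 in clone 3. In clone 3, 90 of 147 members were higher than the mock control mean, against 74 in clone 1 and 51 in clone 2. Of 207 antisense, sense-intronic and TEC genes at the threshold 135 were higher in clone 3, and their medians in clones 1, 2 and 3 were 0.07, -0.04 and 0.22, near those of the members. Protein-coding genes at the threshold went the other way in clone 3, with a median of -0.11. The medians of mock control 2 minus mock control 1 lay between -0.01 and 0.01 in these groups.

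A few members varied widely among the clones. LINC00664, on chromosome 19, had 166 and 184 normalized counts in mock control and 188, 5.4 and 347 in CFIm25-m, so that it was nearly lost in clone 2 alone (adjusted p = 0.686, limma-trend). Its log2 fold change of -1.23 became 0.55 without clone 2. AC064802.1, on chromosome 8, had 294 and 284 against 113, 72.0 and 397 (log2 fold change -0.96, adjusted p = 0.44), which became -1.67 without clone 3. AL117378.1, on chromosome 6, had 634 and 648 against 332, 359 and 1106 (log2 fold change -0.33, adjusted p = 0.741), which became -0.89 without clone 3. In the last pair clones 1 and 2 were below both mock controls and clone 3 above them. These members were picked for their spread among clones, so no p-value is given for fits without the clone that makes it.

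By name, 63 members carried a name based on a genomic clone, and 7 of these were lower and 1 higher. Of 40 LINC numbers 4 were lower and 3 higher, and of 14 members named after a protein-coding partner only ZNF667-AS1 was called. Over all 147 members 14 were lower and 6 higher, which is 13.6% called, and a difference between the kinds of name was not tested. On the opposite strand 53 members overlapped a listed gene, and 39 overlapped one on the same strand, so that their counts may hold reads of that gene. At the edge of the threshold, AP000350.6 had a mock control mean of 100.5, RAB30-AS1 of 101 and AC006504.5 of 102, with CFIm25-m means of 136, 138 and 92.7. Just outside, AFDN-DT had 97.1, AL136162.1 95.9 and AC048341.1 94.2 in mock control and 96.0, 67.0 and 120.3 in CFIm25-m. A mean below 100 in CFIm25-m was found for 15 members, while 23 lincRNAs outside the rule reached 100 there.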

How the data were processed

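Poly(A+) RNA of 5 H9 clones was sequenced by paired-end NovaSeq reads. The authors deposited 1 table of normalized counts per gene, that is, a signal in which reads are scaled by a size factor of each sample. The submitters' processing notes name HISAT2, featureCounts of Subread, DESeq2 and the build hg38, and the versions, annotation release and strand setting are not given in the sources used here. The values were whole multiples of 1 read (100% of values within 0.01 of a whole read), which gave 18754108 to 23372391 reads per sample. The table also holds group means and the authors' own comparison, and neither was used.

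Tested were the 19232 of 33857 genes that reached 10 in 2 or more samples, with limma 3.58.1 (R 4.3.3, mean-variance trend) on log2(value + 1), so fold changes of low genes are understated. Benjamini-Hochberg adjustment of the p-values covered all tested genes, with a threshold of 0.05. Values are log2 fold changes of CFIm25-m over mock control. Mock control and CFIm25-m numbers come from different clones and do not pair samples. P-values rest on the spread between clones of each group, moderated by the fit towards that of genes at a similar level. Deviations of equally numbered samples correlated at 0.01 and 0.02.

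The genes named are all members past the threshold with their nearest tested protein-coding gene within 50 kb, the 10 highest per kb, members on fixed lists, 3 on either side of the mock control threshold and the 3 with the widest range among clones. Other genes near a called member, and the unadjusted passes, were chosen after their values were seen. The members and lists were chosen with earlier results of these data known. Promoters are RefSeq sequences of GRCh38.p14. Alternatives were TMM scaling, scaling to the median of protein-coding genes, other filters, pseudocounts and variance models, count tests on the recovered reads (edgeR 4.0.16 and DESeq2 1.42.0), a replicate block, each sample left out and other thresholds for the members. The scripts were tested on simulated data.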

Additional observations from a re-analysis of the deposited data

How the results depend on the processing

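The counts of 14 lower and 6 higher lincRNAs stayed within 1.5 times under TMM scaling, scaling to the protein-coding median, every filter and pseudocount, edgeR (13 and 6) and DESeq2 (17 and 9). The share of all tested genes called was 1.81% in edgeR and 3.27% in DESeq2, against 1.88% in the main fit. Limma without the trend called 2 lower and 1 higher, and 0 neighbours and 0 genes of the fixed lists. With a member threshold of 200 there were 8 lower and 3 higher among 82 lincRNAs, and with 50 there were 16 and 7 among 289. With 1 sample left out there were 5 to 24 lower and 1 to 8 higher, 1 to 7 called neighbours (4 with all samples) and 1 to 15 called list genes (5 with all samples), the most without CFIm25-m replicate 3. That sample also moves the call share of all tested genes from 1.88% to 5.55%. With the replicate number as a replicate block there were 34 lower and 12 higher members, 17 neighbours, 19 list genes and 2107 genes in all. Only 2 numbers are shared, so the block gives CFIm25-m replicate 3 a term of its own and drops it from the comparison, and the numbers mark different clones. In that fit AL354821.1 turned from 0.04 to -0.24 (adjusted p = 0.0463). The median log2 fold change of the members lay between -0.03 and 0.07 over these alternatives. Of the 20 calls, edgeR, the filter at 50 and the protein-coding scaling lost LINC01963 alone. The cause of these differences was not tested. Depth limits members near 100, where 1 read is worth 0.9 to 1.15 normalized counts.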

Other observations

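Some lincRNAs below the mock control threshold also passed an adjusted p of 0.05 (limma-trend). Those that were lower had reached the filter on low values mainly or only through the mock controls, so their number is not given. AC097652.1, on chromosome 4, had normalized counts of 26.5 and 44.4 in mock control and was at 0 in every CFIm25-m clone, which allows up to 3 reads in each (counting error only). AC016205.1, on chromosome 18, had 84.1 and 80.1 against 9.02, 7.2 and 1.92. LINC00992 had 64.5 and 40.5 against 13, 1.80 and 2.89. The increases were in PSMG3-AS1, beside a proteasome assembly gene, with 89.9 and 84.0 against 205, 193 and 195, and in LINC01719, with 40.3 and 47.3 against 86.2, 104 and 88.5. PSMG3-AS1 was also the only called gene of the 23 lincRNAs that were below 100 in mock control and at least 100 in CFIm25-m. LINC00540, another of the 23, had 80.7 and 90.7 in mock control and 77.2, 209 and 27.9 in CFIm25-m, so only clone 2 was above 100.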
